A study of Mus musculus with 4 samples.

Results

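A set of 40 immediate early genes was followed in single endothelial cells of the mouse aorta and lung whose tissue had been digested with a transcription blocker. It holds 40 named genes of the 31053 rows in each matrix, and each of the 40 was present in each of the 4 libraries. It was taken as a list of gene names, and the cells were those with at least 500 UMIs (unique molecular identifiers, 1 per captured RNA molecule) and at most 15% of UMIs from mitochondrially encoded genes. In the aorta 404 of 449 wild-type and 1569 of 1623 knockout barcodes passed, and in the lung 775 of 800 and 508 of 529.

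The study compared vessels with and without Oct4 (Pou5f1), a transcription factor of pluripotent cells, in the endothelium. All mice were female C57/B6J animals of an Apoe-deficient line with an eYFP endothelial lineage label that depends on a Cdh5 driver, and Western diet was given to all of them for 5 weeks. The wild-type groups came from 2 mice with intact Oct4 and the knockout groups from 3 mice lacking Oct4 in the traced endothelial cells. Actinomycin D was present at 1 µg/mL while aorta and lung were digested, eYFP-positive cells were sorted against littermates without the Cdh5 driver, and 1 droplet library was made per tissue and genotype. Mice were not separated within a library, so there was no replicate of any group and no test was possible. Each interval given is a 95% interval that covers counting error only. No library made without actinomycin D was analysed here, so the levels are those present under the block, with no unblocked level beside them.

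Immediate early genes are those that a cell transcribes within minutes of a stimulus from factors it already holds, without new protein. Growth factors, shear stress, inflammatory ligands and tissue dissociation are known to induce them in endothelium. Their mRNAs are as a rule short-lived, and many code for transcription factors or for proteins that shut the same signal off. Actinomycin D binds DNA and halts elongating RNA polymerase, and is added to dissociation buffers to limit induction during handling.

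Where 4 values follow each other, they are those of the aorta (wild type, then knockout) and of the lung (wild type, then knockout). Kept cells held 989757, 4418832, 1493917 and 1040626 UMIs, with median UMIs per cell of 2090, 2325, 1662 and 1732. Any pair of libraries shared 0 to 2 barcodes. Pou5f1 had 0, 1, 2 and 1 UMIs in that order, under the 3 counts taken as a floor, so the genotype labels could not be checked from it. The 12 pan-endothelial markers were each detected in each library, with summed levels of 8377 to 13339 counts-per-million of the library's UMIs (CPM). The knockout lung stood apart: 1 cell with 42860 UMIs, of which 28398 were Scgb1a1, a secretory airway product, held 4.12% of its UMIs and 35 immediate early gene UMIs. The 10 epithelial markers summed to 31681 CPM there against 680 CPM in the wild-type lung, and the 6 erythroid markers to 30579 against 1208 CPM. Erythroid markers also differed in the aorta, at 14865 CPM without and 1736 CPM with the knockout. Results that involve the knockout lung are therefore given with and without that cell where it moves them.

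Together the 40 genes made up 1.26% of all UMIs in the wild-type aorta (95% interval 1.23 to 1.28, exact Clopper-Pearson) and 1.14% in the knockout aorta (1.13 to 1.15). The lung values were 2.17% (2.15 to 2.20) for the wild type and 1.91% (1.88 to 1.93) for the knockout. Both lung libraries lay above both aortic ones. In the 5 wild-type and 3 knockout erythroid-like cells of the aorta the same genes held 0.0161% and 0.0250% of UMIs.

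The members of activator protein 1 (AP-1), the dimeric transcription factor built from Fos, Jun and Atf proteins, took the largest part of this sum. The 7 AP-1 genes held 0.538%, 0.466%, 0.699% and 0.637% of UMIs. Fos, the inducible partner of the dimer, stood at 1762, 1586, 1311 and 1070 CPM. It was the most abundant of the 40 in both aortic libraries, and its level there was above that in either lung library. Jun, the partner able to pair with itself, stood at 1069, 984, 2154 and 2199 CPM, with both lung libraries above both aortic ones. Junb, a related partner, had 1174, 1049, 1877 and 1565 CPM. Jund, the family member expressed in unstimulated cells, had 921, 687, 957 and 872 CPM, the knockout aorta being lowest. Fosb and Atf3 followed at 171 to 258 and 142 to 404 CPM, and Fosl2 was at 33.6 to 59.6 CPM.

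The 12 other transcription factors held 0.157%, 0.130%, 0.318% and 0.260% of UMIs. Cebpd, a C/EBP factor of the acute-phase response, had 345 and 319 CPM in the wild-type and knockout aorta but 1731 and 1402 CPM in the corresponding lungs. Egr1, a zinc-finger factor induced by growth factors and shear, had 302, 239, 454 and 327 CPM. Nr4a1, an orphan nuclear receptor, went the other way between tissues, with 155 and 141 CPM in the aorta and 95.7 and 76.9 CPM in the lung. Csrnp1 had 80.8, 48.4, 202 and 166 CPM, Klf10 182, 125, 155 and 142 CPM, and Cebpb 71.7, 27.4, 109 and 50.9 CPM. Klf6 lay between 262 and 320 CPM, and Maff between 62.6 and 79.0 CPM. Nr4a2 was at 22.1 to 48.5 CPM. The 3 least abundant of the 40 were also here: Egr3, at most 28.1 CPM, Egr2 at 1.92 to 8.08 CPM and Nr4a3 at 1.34 to 4.04 CPM.

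The 8 genes grouped here as signalling brakes held 0.230%, 0.220%, 0.376% and 0.350% of UMIs. Most of them, though not all, code for proteins that damp the signals that induce the set. Nfkbia, the inhibitor that holds NF-kB in the cytoplasm, had 844, 791, 1429 and 1390 CPM. Dusp1, a phosphatase of p38 and JNK kinases, had 695, 691, 931 and 874 CPM. Dusp6, a phosphatase of ERK kinases, had 59.6, 54.3, 173 and 189 CPM. Ppp1r15a, which reverses the translation block of the stress response, was at 335 to 507 CPM and Socs3, an inhibitor of cytokine receptor signalling, at 178 to 575 CPM. Nfkbiz was highest in the wild-type lung, at 106 CPM against 67.3 CPM in the knockout lung, while Dusp2 and Trib1 stayed at or under 53.5 CPM.

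The 4 genes of mRNA decay held 0.109%, 0.0994%, 0.228% and 0.179% of UMIs. Btg2, an adaptor of the deadenylase complex, had 307, 247, 853 and 594 CPM. Zfp36 (tristetraprolin), which binds AU-rich elements and recruits the decay machinery, had 265, 246, 714 and 594 CPM. Both were higher in either lung library than in either aortic one. Btg1 was at 326 to 449 CPM and Zfp36l1 at 173 to 267 CPM.

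The remaining 9 genes act in growth and survival and held 0.224%, 0.228%, 0.553% and 0.479% of UMIs. Ier3, a regulator of apoptosis, had 294, 347, 2440 and 2120 CPM, the widest gap between tissues of the abundant members. It was the most abundant of the 40 in the wild-type lung, where it ranked 36th of all genes by UMIs, and 489th in the wild-type aorta. Ier2 had 463, 449, 1028 and 798 CPM. Rhob, a small GTPase of endosomes and the cytoskeleton, had 506, 572, 414 and 445 CPM, with both aortic values above both lung values. Gadd45b, a stress-response gene, had 155, 168, 253 and 163 CPM. Gadd45g, Sertad1, Ier5, Mcl1 and Hbegf lay between 85.5 and 382 CPM. UMIs count molecules and were not divided by transcript length, since the libraries capture transcript ends.

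**Figure D1:**
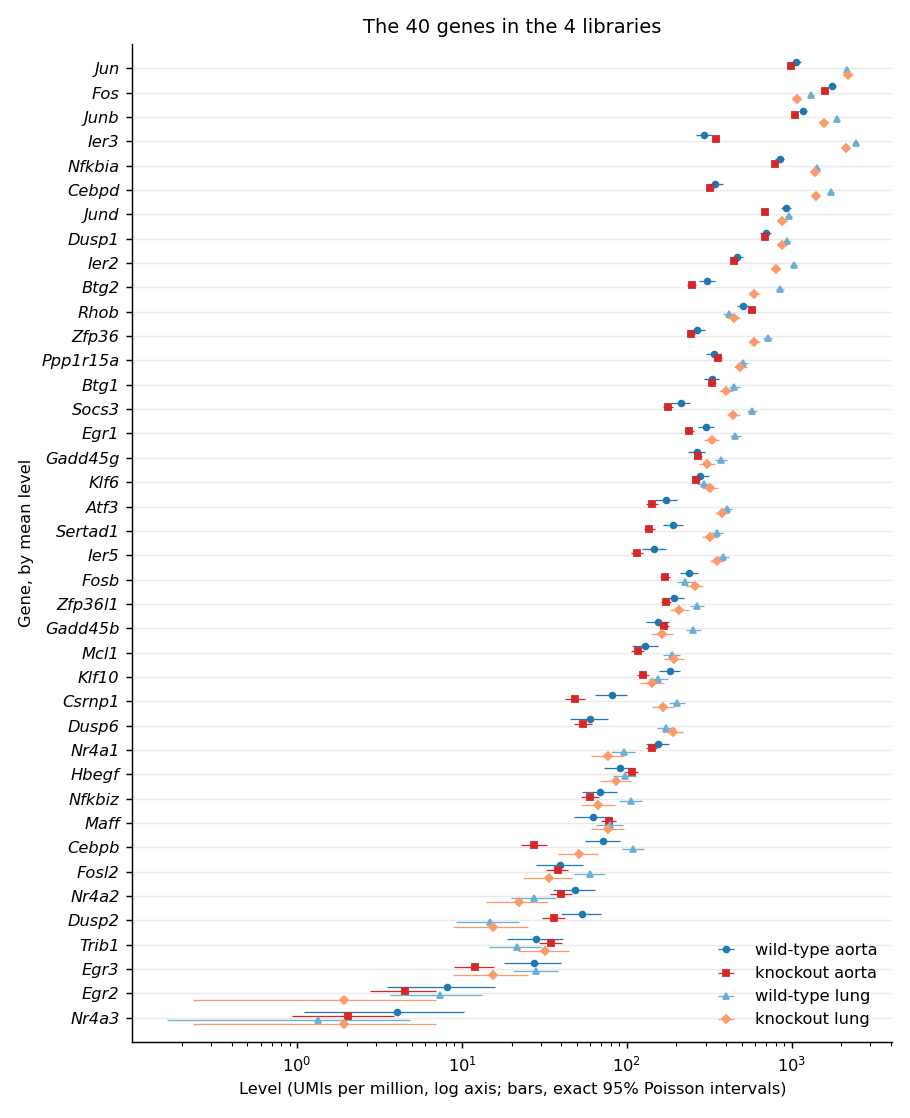
Level of each of the 40 genes (rows, ordered by mean level) in the 4 libraries, in CPM on a log axis; points are library values and bars exact 95% Poisson intervals. Ier3 and Cebpd show the widest separation of lung from aorta. Among members averaging 50 CPM or more over the 2 tissues of each genotype, Fos, Rhob and Nr4a1 lie higher in the aorta in both genotypes. Some scarcer members, Dusp2 and Nr4a2 among them, do so as well.

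Sequence features known from this class of genes were read for the members from reference annotation. Promoter windows, 250 bases before to 50 after the start, were found for 32 of the 40 genes in RefSeq (GRCm38.p6). None was found for Cebpd, Egr1, Egr3, Hbegf, Ier2, Klf10, Nfkbiz and Trib1, so these genes could not score for any motif. The short form of the cAMP response element, TGACG or its complement CGTCA, is the core bound by CREB and ATF proteins. It occurred in 17 of 32 members (53.1%) against 23.0% of 27025 genes with a window. The complete palindrome TGACGTCA occurred in 4 (12.5% against 2.03%), namely Btg2, Dusp1, Maff and Ppp1r15a, and contains the short form on both strands. An NF-kB site was found in 8 (25% against 9.55%), and a TATA box, TATAAA or TATATA, in 11 (34.4% against 19.6%). An EGR site was in 7 (21.9% against 3.93%): Dusp2, Fosb, Fosl2, Maff, Nr4a1, Socs3 and Zfp36. A serum response element was in 2 (6.25% against 1.81%), Egr2 and Zfp36, and an AP-1 site, TGANTCA, in 2 (6.25% against 8.97%). Elements more than 250 bases before the start were not searched, so a gene without a match here may still carry one. Both strands were searched, genes with several starts counted once, and a match is a match of letters.

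The promoters shown are those of the abundant members Fos, Junb, Btg2, Dusp1 and Ier3, which differ in these elements. They are printed 5′ to 3′ on the gene's strand with short or palindromic cAMP response elements, NF-kB sites and TATA boxes in capitals.
Fos promoter, chr12:85473640-85473939, plus strand: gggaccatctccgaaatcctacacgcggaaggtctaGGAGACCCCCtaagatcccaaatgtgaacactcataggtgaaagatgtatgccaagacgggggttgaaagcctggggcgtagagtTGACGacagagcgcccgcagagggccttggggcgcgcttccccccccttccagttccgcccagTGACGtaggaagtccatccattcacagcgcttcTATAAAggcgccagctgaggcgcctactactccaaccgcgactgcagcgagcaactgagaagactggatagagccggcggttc
Junb promoter, chr8:84978699-84978998, minus strand: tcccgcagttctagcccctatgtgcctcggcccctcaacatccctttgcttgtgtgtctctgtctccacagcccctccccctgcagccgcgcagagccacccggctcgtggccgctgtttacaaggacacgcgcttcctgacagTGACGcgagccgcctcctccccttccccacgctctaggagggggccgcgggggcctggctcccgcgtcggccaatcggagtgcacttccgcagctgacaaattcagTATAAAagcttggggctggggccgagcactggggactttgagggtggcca
Btg2 promoter, chr1:134079106-134079405, minus strand: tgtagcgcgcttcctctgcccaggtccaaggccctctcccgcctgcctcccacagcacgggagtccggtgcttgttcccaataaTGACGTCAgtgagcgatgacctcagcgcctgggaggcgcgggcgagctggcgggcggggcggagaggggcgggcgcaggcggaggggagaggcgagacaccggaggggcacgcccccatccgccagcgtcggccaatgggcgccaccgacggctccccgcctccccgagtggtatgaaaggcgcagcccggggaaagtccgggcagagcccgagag
Dusp1 promoter, chr17:26508423-26508722, minus strand: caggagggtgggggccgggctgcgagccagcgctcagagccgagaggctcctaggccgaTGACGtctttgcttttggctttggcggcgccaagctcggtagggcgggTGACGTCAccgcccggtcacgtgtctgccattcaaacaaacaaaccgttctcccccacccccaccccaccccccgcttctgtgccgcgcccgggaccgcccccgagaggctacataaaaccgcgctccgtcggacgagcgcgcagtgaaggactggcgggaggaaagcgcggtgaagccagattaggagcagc
Ier3 promoter, chr17:35821463-35821762, plus strand: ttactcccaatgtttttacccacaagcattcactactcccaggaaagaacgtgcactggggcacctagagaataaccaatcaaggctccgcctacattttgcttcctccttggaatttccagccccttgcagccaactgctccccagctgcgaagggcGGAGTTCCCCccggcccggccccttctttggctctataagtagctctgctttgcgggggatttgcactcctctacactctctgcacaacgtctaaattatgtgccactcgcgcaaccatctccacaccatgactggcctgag
Fos carries 2 short elements, an NF-kB site and a TATA box, and Junb 1 short element and a TATA box. Btg2 and Dusp1 each carry the palindrome, and Ier3 an NF-kB site with no cAMP response element in this window.

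The pentamer ATTTA, the core of AU-rich elements that mark mRNA for rapid decay, was counted in the longest 3′ UTR of each gene (GENCODE M21, mm10). It was present in 34 of 40 members (85.0%) against 65.0% of 20979 genes, at 2.50 per kb against 1.93 per kb. The members' median UTR was 1218.5 bases long and that of all genes 954 bases, and length raises the chance of a match. Overlapping pentamers, 2 that share an A, were in 7 members (17.5% against 6.13%): Fos, Csrnp1, Cebpd, Dusp1, Ppp1r15a, Zfp36l1 and Rhob. Windows of 30 bases are shown for 6 genes, with pentamers in capitals, because they hold the element in the forms found here.
Fos 3′ UTR, chr12:85477100-85477129, plus strand: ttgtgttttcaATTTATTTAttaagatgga
Cebpd 3′ UTR, chr16:15889225-15889254, plus strand: ttaggttggacATTTATTTAttgtaacaga
Dusp1 3′ UTR, chr17:26506157-26506186, minus strand: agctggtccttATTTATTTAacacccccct
Ppp1r15a 3′ UTR, chr7:45522951-45522980, minus strand: tcctattATTTATTTATTTATTTAtttgaa
Rhob 3′ UTR, chr12:8498208-8498237, minus strand: attgttactgaATTTATTTAaacgctgaag
Ier3 3′ UTR, chr17:35822484-35822513, plus strand: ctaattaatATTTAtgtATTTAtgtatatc
Ppp1r15a holds 4 overlapping pentamers, the other overlapping cases shown hold 2, and the Ier3 window holds 2 that do not overlap.

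Cells differed widely in the summed share. The median cell gave 0.737%, 0.648%, 1.67% and 1.56% of its UMIs to the 40 genes. The lowest 5% of cells lay at or under 0.139%, 0.184%, 0.304% and 0.252%, and the highest 5% at or above 3.67%, 3.40%, 5.14% and 5.23%. The highest single cells reached 6.94%, 6.69%, 8.14% and 8.66%. No member was detected in 9, 7, 7 and 3 cells. The highest 10% of cells by this share held 28.8%, 30.7%, 27.2% and 26.0% of the 40 genes' UMIs, while holding 9.05%, 9.85%, 10.8% and 9.47% of all UMIs. The aortic distributions were thus bunched at low shares with a long upper tail, and the lung distributions were shifted upward over most of their range.

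**Figure D2:**
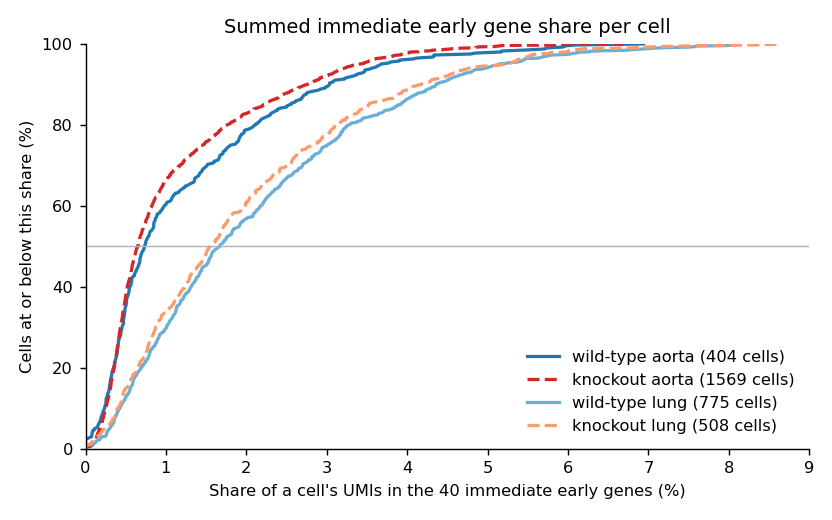
Share of each cell's UMIs in the 40 genes (x axis, percent) against the percent of cells at or below that share (y axis), 1 line per library. At the grey line, which marks the median cell, the aortic libraries cross at 0.737% and 0.648% and the lung libraries at 1.67% and 1.56%.

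The spread exceeded that of counting. After each cell was thinned to 500 UMIs, the variance of the summed count was 7.07, 6.09, 6.61 and 6.71 times its mean, where counting alone gives about 1. The coefficient of variation left after subtracting counting error was 0.973, 0.962, 0.735 and 0.762. Among genes with a mean of at least 0.1 UMIs in thinned cells, the squared coefficient of variation beyond counting had a median of 2.55, 1.42, 1.13 and 1.43 over the members. Over all such genes it was 0.374, 0.249, 0.370 and 0.411. The members above the all-gene median were 20 of 21, 17 of 17, 22 of 24 and 23 of 24 that reached this level.

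The members varied together over cells. The share of the 7 AP-1 genes and that of the other 33 members had a Pearson r of 0.786 and 0.826 over 404 wild-type and 1569 knockout aortic cells, and of 0.730 and 0.731 over 775 and 508 lung cells. In cells thinned to 500 UMIs r was 0.702, 0.659, 0.622 and 0.618. Cells of a library share its preparation and both shares have the same denominator, so these values describe the libraries. Against the sum of the other members, Junb had the highest Spearman rho in each library, from 0.721 to 0.769. Fos came next in both aortic libraries, at 0.663 and 0.689, and Ier3 in both lung libraries, at 0.654 and 0.635, where Fos had 0.636 and 0.613. There were 13 members with a rho of at least 0.4 in each library, and 7 with a rho under 0.2 in each.

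**Figure D3:**
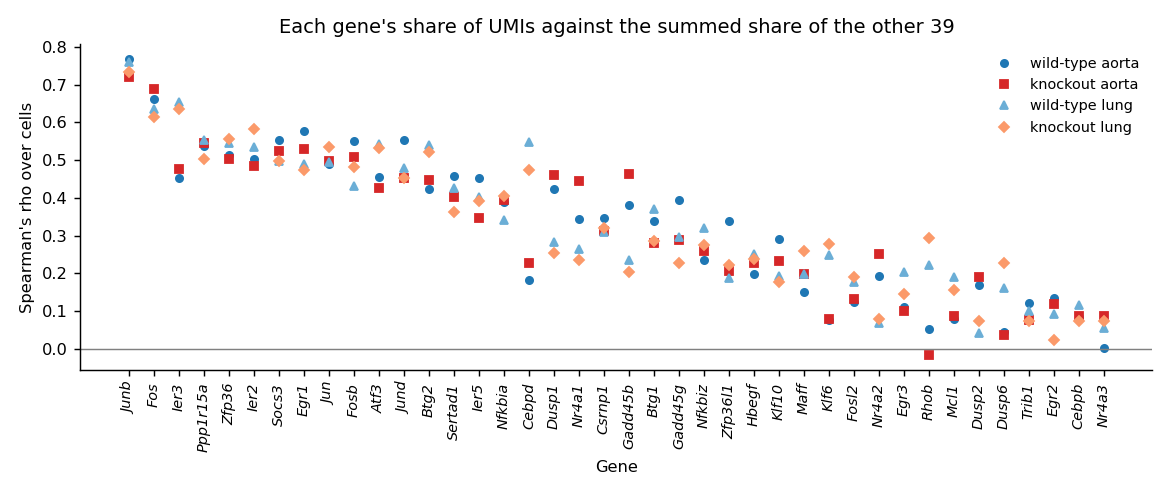
Spearman's rho over cells (y axis) between each gene's share of UMIs and the summed share of the other members, with 1 point per library. Junb lies highest in each library, followed by Fos in the aorta and by Ier3 in the lung; Rhob, Klf6, Mcl1 and Dusp6 lie near 0 in both aortic libraries and higher in both lung libraries.

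Some of these patterns differed between the aortic and the lung libraries. Cebpd followed the other members with a rho of 0.548 and 0.473 in the wild-type and knockout lung and 0.181 and 0.227 in the corresponding aortas. Rhob had 0.0533 and -0.0178 in the aortas and 0.221 and 0.292 in the lungs. Junb differed most plainly between cells: in the 10% of wild-type aortic cells with the highest share of other members it stood at 5195 CPM, and in the lowest 10% at 40.7 CPM.

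The summed share moved with other properties of the cells. Its Pearson r with the mitochondrial percent was -0.081, -0.233, -0.194 and -0.210, and with log10 UMIs -0.033, 0.089, 0.096 and 0.050. With cells split into 3 equal groups by mitochondrial percent, the highest group had a median summed share of 0.498%, 0.502%, 1.16% and 0.898%, against 1.12%, 1.01%, 1.95% and 1.77% in the lowest group. Its r with the share of 12 heat shock genes was 0.631, 0.482, 0.440 and 0.356, and with 12 steady reference genes 0.351, 0.268, 0.134 and 0.234. The part of these properties in the spread was not tested.

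The lung libraries exceeded the aortic ones in most members. Aorta and lung libraries may have been processed apart, so tissue and library cannot be told apart in this comparison. The summed share in the aorta was 0.578 times that in the lung among wild-type libraries (0.566 to 0.590) and 0.600 times among knockout libraries (0.591 to 0.610). A member was counted as apart at 1.5-fold or more, among genes averaging 50 CPM or more over the pair of libraries, with 30 or more UMIs in the pair. In the wild type 20 of 33 measured members were apart, 19 lower in the aorta and 1 higher, where 38.9% of 3208 genes were apart, 24.9% lower and 14% higher. In the knockout 16 of 32 were apart, 15 lower and 1 higher, where 40.5% of 3180 genes were apart, 22% lower and 18.5% higher. The median log2 ratio of aorta to lung was -0.61 over the members against -0.09 over all genes in the wild type, and -0.51 against 0.01 in the knockout. The other 7 and 8 members were too low to measure. At 2-fold, 11 members were apart in each genotype, where 22.1% and 23.5% of genes were. At 1.5-fold the counts lay above the background among lower genes and below it among higher ones.

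Ier3 was furthest apart, with an aorta to lung ratio of 0.121 in the wild type (0.107 to 0.136) and 0.164 in the knockout (0.153 to 0.175). Cebpd followed at 0.199 (0.177 to 0.223) and 0.228 (0.212 to 0.245). Btg2 had 0.360 and 0.416, and Dusp6 0.345 and 0.287. A set of 13 members was at least 1.5-fold lower in the aorta in both genotypes: Atf3, Btg2, Cebpd, Csrnp1, Dusp6, Ier2, Ier3, Ier5, Jun, Nfkbia, Sertad1, Socs3 and Zfp36. The share of all genes lower by this fold in both genotypes is not given here. Of the 32 members measured in both genotypes, 3 had a ratio above 1 in both. Nr4a1 was at 1.61 (1.28 to 2.04) and 1.84 (1.45 to 2.35), Fos at 1.34 and 1.48, and Rhob at 1.22 and 1.29. Thus the AP-1 partners Fos and Jun lay on opposite sides of 1 in both genotypes.

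**Figure D4:**
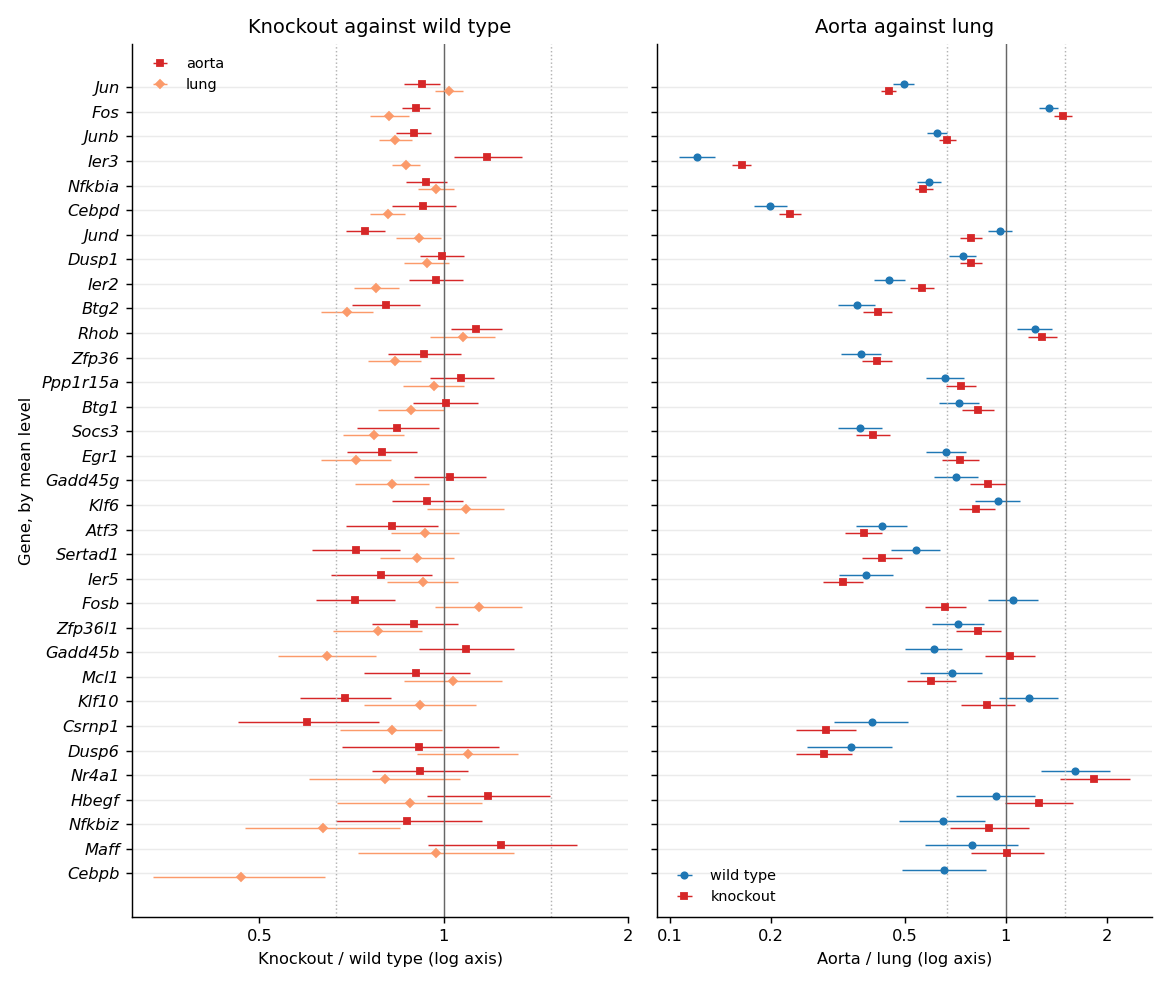
Ratio of each measured member (rows) between libraries on log axes: knockout to wild type on the left, aorta to lung on the right, with exact conditional 95% intervals as bars and dotted lines at 1.5-fold either way. On the left most points lie between the dotted lines; on the right Ier3 and Cebpd lie at 0.121 to 0.228 and Nr4a1 at 1.61 and 1.84.

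Vessel types differ between the tissues, so the vessel classes named in both were compared. Clusters were made without the 40 genes, without 62 other primary response genes and without mitochondrial genes, and were named only where at least 3 fixed markers stood among the 10 leading genes. In large artery-like cells the summed share was 0.952% in the wild-type aorta and 2.58% in the wild-type lung, a ratio of 0.370 (0.346 to 0.395). The knockout values were 1.33% and 2.24%, a ratio of 0.596 (0.556 to 0.641). In the aorta the name fell on the cluster led by Sema3g alone. Its 5 best large artery markers had a mean detection of 80%, and those of the lung cluster 50%. But the aortic clusters led by Col8a1, Atp1b1, Frzb, Klk10 and G0s2 had 87%, 79%, 79%, 78% and 78%. The cluster led by Atp1b1 held 1.60% and 1.42% (wild type, knockout), that led by Frzb 0.855% and 0.815%, and that led by Klk10 1.05% and 0.836%. Those led by Col8a1 and G0s2 had 6 and 5 wild-type cells and held 1.00% and 1.03% in the knockout. The large artery-like ratios thus hold for the named cluster only. In venous-like cells the ratio was 0.383 in the wild type and 0.431 in the knockout. Lymphatic-like cells had 1.55% and 1.87% in the wild type, a ratio of 0.831 (0.773 to 0.892), while the median cell had 0.675% and 1.53%, further apart than the pooled shares. The knockout values were 1.26% and 2.21%, where the lung gave 19 cells. The direction was the same in each of these 6 comparisons. No lung cluster met the naming rule for general capillary-like cells, so that class was not compared. Lung clusters led by Lpin2, Slc6a6, Esm1 and Ifit3 detected its 5 best markers at a mean of 82%, 87%, 88% and 91%. In that order they held 1.46%, 2.97%, 3.14% and 2.93% in the wild type. The knockout values were 1.46%, 2.55%, 3.27% and 2.20%. The aortic general capillary-like cells held 2.89% in the wild type and 2.06% in the knockout. In each genotype this lay above the Lpin2-led cluster and below the ones led by Slc6a6, Esm1 and Ifit3. The aortic interval overlapped that of the Ifit3-led cluster in both genotypes and that of the Slc6a6-led one in the wild type.

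Ier3 and Cebpd kept a wide gap within arteries and veins and had a narrower one in lymphatic-like cells. Ier3 stood at 214 CPM in wild-type aortic and 3071 CPM in wild-type lung large artery-like cells, and at 297 and 2189 CPM in venous-like cells. In wild-type lymphatic-like cells it stood at 119 and 241 CPM, and in knockout ones at 287 and 247 CPM. Cebpd had 292 and 1529 CPM in wild-type large artery-like cells, 368 and 805 CPM in wild-type lymphatic-like cells and 471 and 539 CPM in knockout ones. Fos had 2554 and 2081 CPM in wild-type lymphatic-like cells but 1568 and 3122 CPM in knockout ones, and 847 and 1973 CPM in wild-type venous-like cells, so its excess in the aorta was not seen in each class.

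Among the 7 aortic clusters that had 20 or more cells in each library, the share was highest in 1 vessel type. General capillary-like cells, led by Rgcc, Car4 and Gpihbp1, held 2.89% (2.77 to 3.01) in the wild type and 2.06% (1.99 to 2.13) in the knockout, from 60 and 104 cells. With clusters made from all variable genes, with the 40 not left out, another cluster of 56 and 195 cells held 2.07% and 2.54%, so that the capillary-like cluster was highest in the wild type alone. The lowest of the 7 was led by Frzb and Cyp1b1, with 0.855% and 0.815%. Junb stood at 4661 and 3123 CPM in the capillary-like cluster against 539 and 549 CPM in the lowest one. Btg2 stood at 1537 and 705 CPM against 169 and 199 CPM, and Jund at 2387 and 1360 against 708 and 510 CPM. Ier3 and Cebpd, in contrast, reached 525 and 408 CPM and 650 and 371 CPM in capillary-like cells, below their levels in both whole lung libraries. Fos was highest in the cluster led by Atp1b1, at 3213 and 2415 CPM, and Rhob in the one led by Frzb in both genotypes among the 7, at 749 and 833 CPM. Median UMIs in the capillary-like cluster were 1110 and 1337, lower than in the whole libraries, and its mitochondrial median was 5.86% and 4.31%.

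Among the 7 lung clusters with 20 or more cells in each library, the one led by Esm1 was highest, at 3.14% (3.06 to 3.22) and 3.27% (3.14 to 3.39). Aerocyte-like cells, the gas-exchange capillary type, were lowest at 1.23% and 1.25%. Ier3 ran from 4463 and 4406 CPM in the first to 1140 and 1115 CPM in the second, and Cebpd from 3306 and 2760 to 534 and 475 CPM. Cebpb was uneven in both tissues. It stood at 416 and 126 CPM in aortic lymphatic-like cells and 512 CPM in wild-type lung lymphatic-like cells, and at 0 to 108 CPM in the other compared clusters of either tissue.

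**Figure D5:**
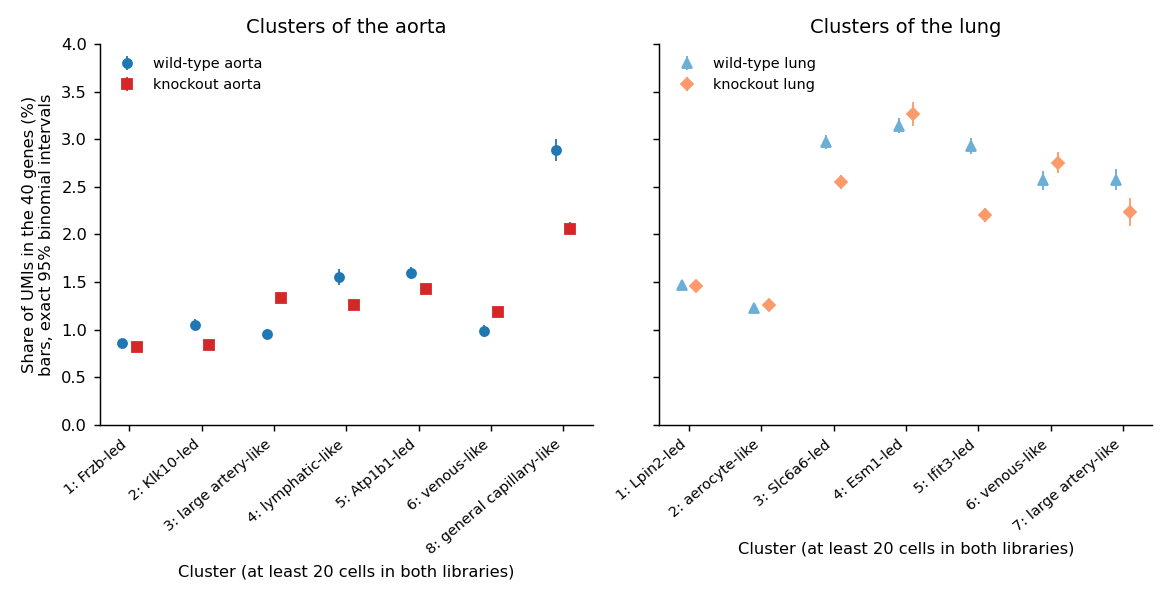
Share of UMIs in the 40 genes (y axis, percent) in each cluster of 20 or more cells per library, wild type and knockout side by side, with exact 95% binomial intervals. The general capillary-like cluster of the aorta lies at 2.89% and 2.06%, above the other aortic clusters, and the lung clusters span 1.23% to 3.27%.

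Knockout and wild type were nearer to each other in sum than the tissues were. In the aorta the knockout held 0.910 times the wild-type share (0.892 to 0.928), and in the lung 0.876 times (0.861 to 0.892). The lung ratio was 0.922 without the deepest cell of each library and 0.968 in endothelial-like clusters alone. In the aorta 1 of 32 measured members was at least 1.5-fold apart, and it was lower in the knockout, where 5.45% of 2992 genes were apart, 2.34% lower and 3.11% higher. In the lung 3 of 33 were apart, each lower, where 4.92% of 3255 genes were apart, 3.04% lower and 1.87% higher. At 2-fold the counts were 0 and 1, where 1.3% and 1.23% of genes were apart. Without the deepest cells the 1.5-fold counts were 2 in the aorta and 1 in the lung. Both moved with other settings as well: they were 9 and 5 in cells thinned to 500 UMIs, 5 and 1 by the mean of per-cell shares and 3 and 1 with clusters weighted alike. No all-gene share at these other settings stands beside these counts, so they cannot be set against a background. The median log2 ratio was -0.13 over the members against 0.04 over all genes in the aorta, and -0.18 against -0.07 in the lung. Ratios were below 1 for 24 of 32 members in the aorta, where 43.9% of all measured genes were, and for 27 of 33 in the lung, where 61.2% were. Without the deepest cells the lung count was 24 of 33, where 53.9% of genes were below 1.

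Csrnp1 was the member apart in the aorta, at 0.599 (0.461 to 0.785). Klf10 stood at 0.689 (0.582 to 0.820) and Jund at 0.745 (0.692 to 0.803). After thinning Klf10 stood at 1.23 and Jund and Csrnp1 remained below 1. Above 1 in the aorta were Ier3 at 1.18 (1.04 to 1.34) and Rhob at 1.13 (1.03 to 1.25), and Ier3 stood at 0.945 after thinning. In the lung Cebpb was at 0.467 (0.336 to 0.640), Nfkbiz at 0.636 (0.473 to 0.848), Gadd45b at 0.646 (0.536 to 0.776) and Btg2 at 0.696 (0.631 to 0.767). In endothelial-like clusters alone Cebpb stood at 0.641, Gadd45b at 0.771 and Btg2 at 0.779. The value of Nfkbiz there is not given here, and only 1 member was 1.5-fold apart in those lung clusters. Cebpb was also lower in the knockout aorta, 27.4 against 71.7 CPM, but its mean fell under the 50 CPM needed to be counted. The wild-type lung held 15 fibroblast-like cells with Cebpb at 902 CPM and Nfkbiz at 593 CPM, and the knockout lung 1 such cell. Those 15 cells held 25 of the 158 Nfkbiz UMIs of the wild-type lung. The part of these cells in the Cebpb ratio was not tested beyond the endothelial-like value, and their part in the Nfkbiz ratio was not tested.

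Of the 32 members measured in both tissues, 19 had ratios below 1 in both and 1, Rhob, above 1 in both. Of the 2523 genes measured in both, 27.9% were below and 22.0% above 1 in both. For 7 members (Btg2, Csrnp1, Egr1, Fos, Junb, Jund and Socs3) both intervals lay below 1. Without the deepest cells Csrnp1 and Jund no longer met this, Cebpb did, and the count was 6. The share of all genes with both intervals below 1 was not counted, so these 2 counts have no background. Ier3 had an interval above 1 in the aorta and below 1 in the lung. Between clusters the direction was mixed. The knockout share was lower in 5 and higher in 2 of the 7 aortic clusters, with intervals apart in 4 and 2 of them. In the lung it was lower in 4 and higher in 3 of 7, with intervals apart in 3 and 0. Large artery-like cells of the aorta had 0.952% in the wild type and 1.33% in the knockout, but their median cell had 0.797% and 0.614%. The pooled share and the median cell thus went opposite ways there. The capillary-like cells had 2.89% and 2.06%, with a median cell at 2.73% and 1.96%. They were 14.9% of wild-type and 6.63% of knockout aortic cells, and with clusters weighted alike the aortic ratio was 0.902.

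Related genes were set beside the members. Of the 62 other primary response genes, 31 were measured in the aortic genotype comparison. There 12 were above and 19 below 1, where 56.1% of all measured genes were above 1. Their summed share was 0.905 times the wild type (0.886 to 0.924). In the lung 15 of 30 were above and 15 below 1, where 38.8% of all measured genes were above 1, with a sum at 0.987. Between tissues 14 of 30 were at least 1.5-fold lower in the wild-type aorta and 3 higher, where 24.9% of all genes were lower and 14% higher. The chemokine Cxcl2 was 7.07 times and the matrix protein gene Thbs1 6.71 times the lung level, while Ahr, the aryl hydrocarbon receptor, was at 0.0932 and Plk2, a kinase, at 0.344. Members and this list thus both held genes on either side.

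Genes upstream of the set are kinases and factors such as Mapk3 and Elk3 that relay the inducing signals. Their sums were 1.01 and 1.00 times the wild type in aorta and lung. At 1.5-fold 0 of 11 and 0 of 13 measured were apart, where 5.45% and 4.92% of all genes were. For the counts above 1 that follow, 56.1% of all measured genes were above 1 in the aorta and 38.8% in the lung. In the aorta 7 were above 1 and 4 below, with Mapk3 at 1.26 (1.09 to 1.47) and Mkl2 at 0.718 (0.610 to 0.847). Heat shock genes, a separate stress response, were higher in the knockout in sum, at 1.22 (1.18 to 1.26) in the aorta and 1.15 (1.11 to 1.20) in the lung. Of 10 measured in the aorta 9 were above 1, with Hspd1 at 1.43 and Hspa5 at 1.42 highest and Dnajb1 at 0.83 and Hspa1a at 1.00 lowest. In the lung 8 of 11 were above 1, with Hspa1b at 2.05 and Hspa1a at 1.75 highest and Dnajb1 at 0.71 and Hspb1 at 0.94 lowest. The summed heat shock share thus lay on the other side of 1 from that of the 40 genes in both tissues. Steady reference genes had sums at 1.00 and 0.976, but single genes of that list were not flat. They ran from Actb at 0.832 to B2m at 1.48 in the aorta. In the lung they ran from Fau at 0.756 to B2m at 1.25.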

How the data were processed

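Per the labels' protocols, cells were captured with 10x Chromium and sequenced on a MiSeq. The deposited matrices hold whole-number UMI counts of each gene in each cell. Per the submitters' processing notes, the authors used Cell Ranger and the mm10 build; its version, the counting annotation and the use of strand were not given in the sources used here. Lung rows are Ensembl identifiers, of which 30934 matched GENCODE M21 and 119 did not; rows of the same symbol were summed.

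The members and lists were chosen with earlier results of these data known. Cells with at least 500 UMIs and at most 15% mitochondrial UMIs were kept, and their counts summed per library. Levels are CPM with exact Poisson intervals, shares have exact Clopper-Pearson and ratios exact conditional 95% intervals, computed with scipy 1.17.1. With 1 library in a group these express counting error alone, and no test was run across cells. Genes were compared where they averaged 50 CPM or more over the pair and had 30 or more UMIs in it, and 1.5-fold or more was counted as apart. Ratios and intervals were tested on simulated data.

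Clusters were made per tissue with both genotypes in scanpy 1.11.5 (10000 counts per cell, 2000 variable genes, 30 principal components, 15 neighbours, Leiden resolution 1). A cluster was named "-like" with at least 3 fixed markers among its 10 leading genes, and otherwise called by its leading genes; endothelial-like clusters had at least 60% mean detection of the 5 best pan-endothelial markers. Names rebuilt from markers can differ from the authors'. Scrublet called 2 and 4 doublets in the aorta (wild type, knockout) and 10 and 5 in the lung; they were kept, and removed in an alternative. No correction for free RNA was made.

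Values are given in full for the 12 members with the highest mean level and for the 3 highest and 3 lowest members of each of the 4 comparisons by the interval bound nearest to 1; other members and clusters are named after their values were seen. The short cAMP response element and TATA box were added to the motifs after the promoters had been read.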

Additional observations from a re-analysis of the deposited data

How the results depend on the processing

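No paired analysis was possible because each group is 1 library. Leaving out the deepest cell of each library was an alternative chosen after seeing the data. The summed share of the 40 genes in the wild-type aorta was 1.23% with all barcodes, 1.23% under the stricter cell filter (1000 UMIs, 10% mitochondrial), 1.29% thinned to 500 UMIs, 1.31% without mitochondrial UMIs, 1.41% with clusters weighted alike and 1.08% without Fos, the member with the most UMIs. For the knockout aorta it came to 1.16% (stricter), 1.10% (thinned), 1.19% (no mitochondrial UMIs), 1.09% (mean of per-cell shares), 1.27% (clusters alike) and 0.985% (no Fos). These 6 settings gave 2.20%, 2.09%, 2.24%, 2.10%, 2.41% and 2.04% for the lung of wild types, and 1.93%, 1.97%, 1.96%, 1.97%, 2.25% and 1.799% for that of knockouts. The knockout lung had 2.08% in endothelial-like clusters alone and 1.98% without its deepest cell. Both lung libraries stayed above both aortic ones under each of these settings.

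The knockout to wild-type ratio in the aorta was 0.929 (all barcodes), 0.943 (stricter), 0.857 (thinned), 0.869 (mean of per-cell shares) and 0.887 (median-of-ratios scaling). In the lung it was 0.968 (endothelial-like clusters), 0.946 (thinned), 0.922 (no deepest cell), 0.937 (mean of per-cell shares), 0.931 (clusters alike) and 0.918 (median-of-ratios). The aorta to lung ratio in the wild type was 0.559 (stricter), 0.616 (thinned), 0.598 (mean of per-cell shares), 0.529 (no Fos) and 0.614 (median-of-ratios). In the knockout it was 0.546 (endothelial-like clusters), 0.558 (thinned), 0.576 (no deepest cell), 0.555 (mean of per-cell shares) and 0.548 (no Fos). Each ratio of sums stayed below 1 under each alternative run.

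The count of members 1.5-fold apart between genotypes in the aorta, 1 as reported, was 9 thinned, 2 without mitochondrial UMIs, 2 without the deepest cells, 5 by mean of per-cell shares, 3 with clusters alike, 5 without the level filter, 0 at a mean of 100 CPM and 0 at 2-fold. In the lung, 3 as reported, it was 5 thinned, 6 without the level filter, and 1 in endothelial-like clusters, without the deepest cells, by mean of per-cell shares, with clusters alike, at 100 CPM and at 2-fold. Between tissues in the wild type, 20 as reported, it was 11 at 2-fold. Apart from those at 2-fold, the alternative counts have no all-gene share at the same setting beside them. Cebpb reversed between tissues in the wild type, at 1.05 thinned; the cause was not tested.

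The highest 10% of cells, ranked on thinned counts, held 34.9% (wild type) and 35.1% (knockout) of the genes' UMIs for the aorta and 28.0% for the knockout lung. The cluster values that follow are for clusters of 20 or more cells in each library, and smaller clusters could lie outside them. With clusters made from all variable genes the highest cluster was at 2.54% (knockout aorta, no longer the capillary-like one at 2.06%), 3.61% (lung, wild type) and 3.44% (lung, knockout). The lowest was at 0.490% and 0.505% for the aorta and 1.17% and 1.19% for the lung, wild type first. At Leiden resolution 0.5 the lowest aortic clusters were at 0.943% and 1.03%, and the highest of the knockout lung at 2.93%. The 7 or 8 members that averaged under 50 CPM in a comparison were not counted in it, and their ratios have wide intervals.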
